A study of Mus musculus with 8 samples.

Results

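The 10 genes described here are 6 E2F transcription factors (E2f1, E2f2, E2f3, E2f4, E2f7 and E2f8), the 3 pocket proteins of the retinoblastoma family (Rb1, Rbl1 and Rbl2) and the forkhead factor Foxm1. They were chosen by symbol among the 28791 symbols found in both deposited tables, and each has 1 row per table. The study sequenced RNA of mouse hair follicle stem cells, which live in the bulge and make each new hair. The first pair of libraries came from female C57BL6/129Sv mice of postnatal day 99. Their genotypes were K15CrePGR;Ctnnb1fl/fl with a Rosa-YFP reporter (Ctnnb1 cKO) and K15CrePGR;Ctnnb1+/fl with the same reporter (Ctnnb1 Het). Both carry the Cre driver and at least 1 floxed copy of Ctnnb1, the gene of β-catenin, which carries the Wnt signal into the nucleus. The driver is a Cre recombinase fused to a progesterone receptor domain under a Krt15 promoter, so deletion is limited to cells in which that promoter and the fusion were active. The second pair came from male C57BL6 mice of postnatal day 24 that were Axin2LacZ/+, a reporter of Wnt activity that takes up 1 copy of Axin2 in both libraries. Bulge cells were sorted for LacZ activity, positive or negative, around the move from telogen (rest) to anagen (growth). The labels name telogen for the first pair in the growth protocol and the onset of anagen in the series design. With 1 library per group no difference has a replicate check or a test, and the values describe these libraries only; the sources used here do not say whether mice were pooled. The 4 chromatin immunoprecipitation samples of the series were not analysed here.

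E2F factors switch the genes of DNA replication on and off as cells leave rest. E2f1, E2f2 and E2f3 are activators that bind DNA with a Dp partner, and the pocket proteins hold them inactive until cyclin-dependent kinases phosphorylate the pocket protein. In resting cells E2f4 joins Rbl1 or Rbl2 and the MuvB proteins in a complex that represses cell cycle genes. E2f7 and E2f8 are atypical members that bind DNA without a Dp partner and repress E2F targets later in S phase. Foxm1 joins MuvB in dividing cells and drives the genes of G2 and mitosis. Bulge stem cells are known for long rest between short bouts of division at the start of each hair growth phase.

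The labels were checked first. Ctnnb1 stood at 370 FPKM in cKO-labelled cells and 251 FPKM in Het-labelled cells. A gene-level value does not resolve the floxed part and runs opposite to a loss, so these libraries are called by their labels. Axin2, a Wnt target, stood at 2.12 FPKM in cKO-labelled and 16.3 FPKM in Het-labelled cells, and at 19.0 FPKM in LacZ-positive and 9.10 FPKM in LacZ-negative cells. FPKM carry no read counts, and depth is therefore unknown. Of 10 bulge markers, 10 were above 1 FPKM in 3 libraries and 9 in LacZ-negative cells, where Krt15 is listed at 0. The summed FPKM of 5 leukocyte markers lay between 3.45 and 8.39, of 4 fibroblast markers between 8.69 and 23.0, and of 3 endothelial markers between 0.134 and 0.324. Differences are on the scale log2(FPKM + 1), cKO-labelled minus Het-labelled or LacZ-positive minus LacZ-negative, a scale that compresses changes of low genes, and a log2 difference of 1 or more in size is called 2-fold. Across all genes that reached 5 FPKM in each library of a pair, the median difference was 0.07 in the first pair and -0.17 in the LacZ pair. In the LacZ pair the members' differences are therefore also given relative to that median, as are those of some other genes.

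Promoters are shown for the 2 atypical E2F genes, which moved in the same direction as each other in each pair, and for 2 pocket protein genes, of which Rbl1 was higher in LacZ-positive cells and Rbl2 near level. The 250 bases before the annotated start are printed 5′ to 3′ on the gene's strand (RefSeq, GRCm38.p6), and capitals mark matches to the core of an E2F site. They lie at chr10:110745189-110745438 on the plus strand for E2f7, at chr7:48881597-48881846 on the minus strand for E2f8, at chr2:157204535-157204784 on the minus strand for Rbl1 and at chr8:91069807-91070056 on the plus strand for Rbl2.
E2f7: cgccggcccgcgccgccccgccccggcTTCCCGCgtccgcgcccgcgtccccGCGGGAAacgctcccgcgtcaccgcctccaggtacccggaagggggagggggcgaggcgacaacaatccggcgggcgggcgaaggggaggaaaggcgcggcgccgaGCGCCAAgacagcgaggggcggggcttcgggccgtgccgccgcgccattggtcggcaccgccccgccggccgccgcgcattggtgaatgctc
E2f8: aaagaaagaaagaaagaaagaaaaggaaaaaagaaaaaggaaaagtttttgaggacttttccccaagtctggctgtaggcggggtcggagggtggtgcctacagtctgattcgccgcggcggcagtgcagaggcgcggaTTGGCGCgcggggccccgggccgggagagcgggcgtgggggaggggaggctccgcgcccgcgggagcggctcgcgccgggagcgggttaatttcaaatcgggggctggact
Rbl1: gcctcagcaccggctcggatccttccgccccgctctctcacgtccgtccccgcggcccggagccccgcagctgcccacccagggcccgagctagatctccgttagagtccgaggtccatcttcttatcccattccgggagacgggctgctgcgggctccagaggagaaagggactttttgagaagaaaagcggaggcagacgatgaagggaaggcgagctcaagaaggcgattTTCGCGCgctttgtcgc
Rbl2: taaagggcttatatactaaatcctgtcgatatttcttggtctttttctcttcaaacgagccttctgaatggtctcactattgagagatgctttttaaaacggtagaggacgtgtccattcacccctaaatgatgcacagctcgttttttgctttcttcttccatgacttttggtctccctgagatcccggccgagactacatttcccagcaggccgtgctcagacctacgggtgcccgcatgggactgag

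The core was searched on both strands by the letters TTCCCGC and by those of 3 variants, which read TTCGCGC in the first, TTGGCGC in the second and TTGCCGC in the third, in windows from 250 bases before to 50 after the start. Such windows were found for 7 of the 10 members, with 9 windows in all; E2f4, Rb1 and Foxm1 had none. The core was present in 5 members, against 9.57% of all 32851 windows. E2f7 held 3 matches, beginning at positions -223, -198 and -92 relative to the start. E2f8 held 1 at -111 and Rbl1 held 1 at -17. E2f3 had matches at -11 and 18 in its upstream window and none in its second, and E2f2 had a match at 40 in its upstream window. E2f1 and Rbl2 had no match in these letters. The cell cycle homology region, a G2-phase promoter element searched as TTTGAA or TTCGAA, was found in E2f8 at -20, in E2f3 at -23, in Rbl2 at -201 and in the second E2f2 window at -31, against 19.2% of all windows. CCAAT boxes, found in 37.4% of all windows, occurred in E2f2, E2f3, E2f7 and E2f8. The one in E2f8, at -112, shares letters with its E2F match. These matches describe letters only and say nothing of binding.

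**Figure D1:**
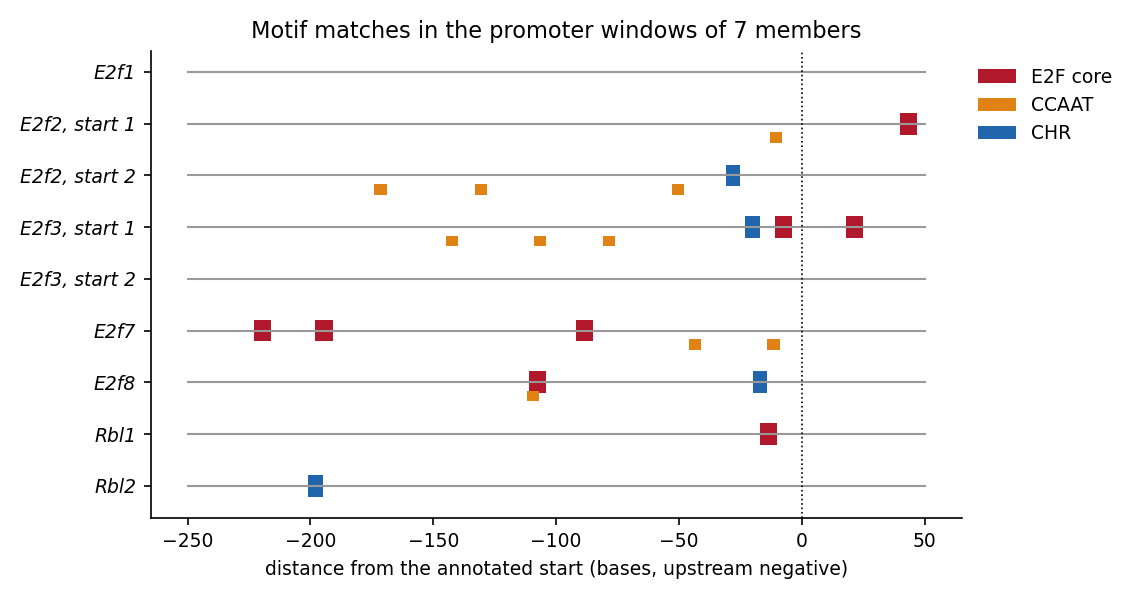
Matches of the E2F core, the cell cycle homology region (CHR) and CCAAT in the 9 promoter windows of 7 members, by distance in bases from the annotated start; grey lines span each window and CCAAT marks are drawn lower. E2f7 holds 3 E2F matches, at -223, -198 and -92, and the windows of E2f1 and Rbl2 hold none.

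By level 9 members formed 3 tiers, and Foxm1 moved across them. Rb1, Rbl2 and E2f4 lay above 10 FPKM in every library, Rbl1 between 4.59 and 9.52 FPKM, and the 3 activators and 2 atypical E2F genes between 0.0334 and 6.01 FPKM. Foxm1 ranged between 0.457 and 10.3 FPKM. FPKM are scaled to transcript length, so these levels can be set side by side within a table, but the tables were normalized separately, so levels of the first pair are not tested against those of the second. E2f4 held place 3 of the 10 and E2f7 place 10 in each library. Foxm1 was at place 4 in LacZ-positive and place 8 in LacZ-negative cells, and E2f3 moved as far the other way, at place 9 in LacZ-positive and place 5 in LacZ-negative cells. Foxm1 held place 7 in cKO-labelled and place 5 in Het-labelled cells. Rb1 and Rbl2 exchanged the first place between cKO-labelled and Het-labelled cells, and without replicates neither such neighbours nor E2f1 and E2f2 in cKO-labelled cells (1.11 and 1.02 FPKM) can be ordered.

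**Figure D2:**
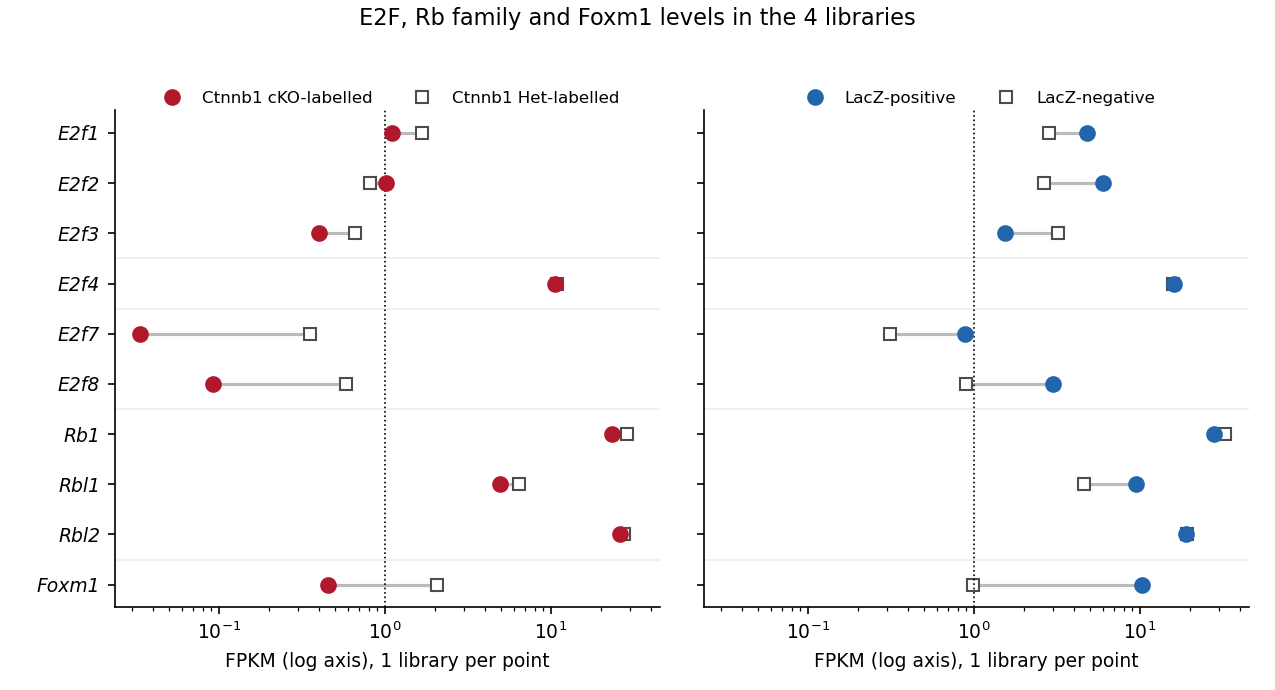
FPKM of the 10 members on a log axis, 1 point per library: cKO-labelled and Het-labelled libraries on the left, LacZ-positive and LacZ-negative cells on the right; the dotted line marks 1 FPKM. Foxm1, E2f7 and E2f8 have the widest gaps, with the cKO-labelled points left of their partners and the LacZ-positive points right of theirs, while the points of E2f4 and Rbl2 nearly coincide.

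The first comparison asks what differs in the stem cells when both copies of Ctnnb1 are floxed. Foxm1 and both atypical repressors were lower in cKO-labelled cells, while Rbl2 and E2f4 lay close to their Het-labelled levels. The pocket proteins Rb1 (-0.29) and Rbl1 (-0.32) were slightly lower. The activators lay at low levels in both libraries, 2 of them lower and E2f2 higher. Of all 10 members 9 were below 0 and 1, E2f2, was above 0. Of all genes with a value above 0, 42.8% were below 0 and 57.2% above it. The members' median was -0.30, against 0.02 for all those genes. In sorted bulk RNA, fewer cells that express a gene and less RNA per cell cannot be told apart. One member, Foxm1, was 2-fold or more lower and none was higher, where 2.29% of the genes that reached 1 FPKM were lower and 1.8% higher (1.49% and 1.17% with no minimum).

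Foxm1 (ENSMUSG00000001517) lies in mm9 at chromosome 6, 128312984 to 128358950, in an interval that 4 genes share. It was measured at 0.457 FPKM in cKO-labelled cells and 2.08 FPKM in Het-labelled cells. The log2 difference was -1.08, at rank 271 from the lowest of 13014 genes. It reached the 1 FPKM minimum through Het-labelled cells alone, where it was 4.56-fold higher by FPKM ratio. Among genes whose higher value was between 1 and 5 FPKM, 3.34% were 2-fold or more lower. In the authors' deposited table, whose log2 fold change has no pseudocount, it is at -2.19. Nrip2, the other gene of the interval with values above 0.1 FPKM, was at 0.394 FPKM in cKO-labelled and 0.484 FPKM in Het-labelled cells.

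E2f7 stood at 0.0334 FPKM in cKO-labelled and 0.356 FPKM in Het-labelled cells, and E2f8 at 0.0930 FPKM in cKO-labelled and 0.584 FPKM in Het-labelled cells. Both genes were thus lower in cKO-labelled cells, yet under 1 FPKM in each library of the pair. The log2 differences were -0.39 for E2f7 and -0.54 for E2f8, and the authors' deposited table gives -3.42 and -2.65 for their FPKM ratios. With no pseudocount, E2f7, E2f8 and Foxm1 were thus the 3 members 2-fold or more lower and none was 2-fold or more higher, against 6.94% and 6.42% of genes above 0 in both libraries. These shares cover genes of every level, and no share was made for genes as low as E2f7 and E2f8.

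Among the activators, E2f1 stood at 1.11 FPKM in cKO-labelled and 1.69 FPKM in Het-labelled cells (log2 difference -0.35), and E2f3 at 0.403 FPKM in cKO-labelled and 0.663 FPKM in Het-labelled cells (-0.25). E2f2 was the only member above 0, at 1.02 FPKM in cKO-labelled and 0.811 FPKM in Het-labelled cells (0.16). E2f4 (mm9 chromosome 8, 107821562 to 107829269), the main E2F partner of Rbl1 and Rbl2, was nearly level at 10.6 FPKM in cKO-labelled and 10.9 FPKM in Het-labelled cells (-0.03).

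The pocket proteins were all slightly lower in cKO-labelled cells. Rb1 (mm9 chromosome 14, 73522843 to 73725629) stood at 23.3 FPKM in cKO-labelled and 28.7 FPKM in Het-labelled cells (-0.29), and Rbl1 at 4.97 FPKM in cKO-labelled and 6.46 FPKM in Het-labelled cells (-0.32). Rbl2 (mm9 chromosome 8, 93593955 to 93658364) stood at 26.1 FPKM in cKO-labelled and 27.7 FPKM in Het-labelled cells (-0.08). The intervals of Rb1 and Rbl2 hold other expressed genes, and reads of these may be counted with them: Lpar6 beside Rb1 was at 13.1 FPKM in cKO-labelled and 17.6 FPKM in Het-labelled cells, and Aktip beside Rbl2 at 49.7 FPKM in cKO-labelled and 34.2 FPKM in Het-labelled cells. Beside these values, the 4 fibroblast markers summed to 23.0 FPKM in cKO-labelled and 14.7 FPKM in Het-labelled cells, and the 5 leukocyte markers to 8.39 FPKM in cKO-labelled and 5.07 FPKM in Het-labelled cells. Their part in the differences was not tested.

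The LacZ comparison asks what sets Wnt-responsive bulge cells apart from the other bulge cells. Foxm1, E2f8, E2f2 and Rbl1 were higher in LacZ-positive cells, E2f3 was lower, and E2f4, Rb1 and Rbl2 were near level. Of all 10 members 7 were above 0 and 3 below, where 43.7% of all genes with a value above 0 were above 0 and 56.3% below. The members' median was 0.56, against -0.03 for all those genes. Foxm1 and E2f8 were 2-fold or more higher and no member was 2-fold or more lower, where 4.67% of the genes that reached 1 FPKM were higher and 2.6% lower (3.06% and 1.71% with no minimum). Relative to the median of all genes 4 members were past the line, with E2f2 and Rbl1 added, against 6.05% of genes.

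Foxm1 stood at 10.3 FPKM in LacZ-positive and 0.995 FPKM in LacZ-negative cells, a log2 difference of 2.51, or 2.68 relative to all genes, and a FPKM ratio of 10.4. It was at rank 131 from the highest of 13283 genes, where 5.4% of genes with a higher value of 5 to 15 FPKM were 2-fold or more higher. Nrip2, of the same interval, was level at 0.536 FPKM in LacZ-positive and 0.557 FPKM in LacZ-negative cells.

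E2f8 (mm9 chromosome 7, 56121798 to 56141978) stood at 3.02 FPKM in LacZ-positive and 0.902 FPKM in LacZ-negative cells, a log2 difference of 1.08, or 1.25 relative to all genes, and a ratio of 3.35. Like Foxm1, it reached the minimum through LacZ-positive cells alone, and 5.38% of genes with a higher value of 1 to 5 FPKM were 2-fold or more higher. E2f7 (chromosome 10, 110182494 to 110224440) stood at 0.889 FPKM in LacZ-positive and 0.314 FPKM in LacZ-negative cells, a ratio of 2.83 below the 1 FPKM minimum (log2 difference 0.52, or 0.69 relative to all genes). In both pairs the 2 atypical genes moved together.

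The activators did not move as a group. E2f2 (chromosome 4, 135728308 to 135751972) stood at 6.01 FPKM in LacZ-positive and 2.63 FPKM in LacZ-negative cells, a ratio of 2.28 and a log2 difference of 0.95, or 1.12 relative to all genes. E2f1 (chromosome 2, 154385142 to 154395628) stood at 4.84 FPKM in LacZ-positive and 2.84 FPKM in LacZ-negative cells (0.60, or 0.77 relative to all genes). E2f3 (chromosome 13, 29998443 to 30077537) was opposite, at 1.54 FPKM in LacZ-positive and 3.20 FPKM in LacZ-negative cells, a log2 difference of -0.72, or -0.55 relative to all genes. By FPKM ratio E2f3 was 2.07-fold higher in LacZ-negative cells. It was the lowest of the 10 members in this pair and shares its interval with Gm11365, which was below 0.2 FPKM in both populations.

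E2f4 had nearly the same FPKM in both, 16.0 FPKM in LacZ-positive and 15.8 FPKM in LacZ-negative cells (0.02, or 0.19 relative to all genes). Of the pocket proteins, Rbl1 (chromosome 2, 156971628 to 157030270), which shares its interval with no other gene, stood at 9.52 FPKM in LacZ-positive and 4.59 FPKM in LacZ-negative cells. Its ratio was 2.07 and its log2 difference 0.91, or 1.08 relative to all genes. Rb1 stood at 28.1 FPKM in LacZ-positive and 32.5 FPKM in LacZ-negative cells (-0.20, or -0.03 relative to all genes, and 0.01 after upper-quartile scaling). Rbl2 stood at 18.9 FPKM in LacZ-positive and 19.2 FPKM in LacZ-negative cells (-0.02, which turned to 0.15 relative to all genes and to 0.18 after upper-quartile scaling), so neither has a stable direction. By FPKM ratio 5 members were 2-fold or more higher in LacZ-positive cells, namely Foxm1, E2f8, E2f7, E2f2 and Rbl1, against 11.2% of genes above 0 in both libraries. E2f3 was lower, against 7.19%. Both shares cover genes of every level.

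Beside these values, the 5 suprabasal keratinocyte markers summed to 3293 FPKM in LacZ-positive and 1420 FPKM in LacZ-negative cells, with all 5 higher in LacZ-positive cells, while they summed to 1167 FPKM in cKO-labelled and 1096 FPKM in Het-labelled cells. The 4 melanocyte markers summed to 19.4 FPKM in LacZ-positive and 14.7 FPKM in LacZ-negative cells, and the 4 fibroblast markers to 8.69 FPKM in LacZ-positive and 17.5 FPKM in LacZ-negative cells. The 10 bulge markers summed to 14537 FPKM in LacZ-positive and 11568 FPKM in LacZ-negative cells, with 5 of 10 lower in LacZ-positive cells and Krt15 listed at 0 in LacZ-negative cells. Cd34, a surface marker of bulge cells, was the lowest of them (-1.21), at 223 FPKM in LacZ-positive and 516 FPKM in LacZ-negative cells, followed by Lhx2 at 145 FPKM in LacZ-positive and 242 FPKM in LacZ-negative cells. The part of these markers in the LacZ differences was not tested.

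The make-up of the 6 E2F members and of the Rb family also differed between libraries. The E2F sum leaves out E2f5 and E2f6, so its shares are not those of the whole family. E2f6 alone lay above E2f4 in cKO-labelled cells (17.9 against 10.6 FPKM) and in LacZ-positive cells (32.4 against 16.0 FPKM). It lay below E2f4 in Het-labelled and LacZ-negative cells. Of the summed FPKM of the 6 E2F members, E2f4 made up 79.9% in cKO-labelled and 72.6% in Het-labelled cells, while it made up 49.6% in LacZ-positive cells, against 61.5% in LacZ-negative cells. The 3 activators together made up 19.2% in cKO-labelled and 21.1% in Het-labelled cells, while they made up 38.3% in LacZ-positive cells, against 33.8% in LacZ-negative cells. E2f7 and E2f8 together made up 0.953% in cKO-labelled and 6.29% in Het-labelled cells, while they made up 12.1% in LacZ-positive cells, against 4.74% in LacZ-negative cells. The share of the atypical repressors was thus lower in cKO-labelled than Het-labelled cells and higher in LacZ-positive than LacZ-negative cells. In cKO-labelled cells it rests on 0.0334 FPKM of E2f7 and 0.0930 FPKM of E2f8, at unknown depth. Within the Rb family the sum hardly differed between LacZ-positive (56.5 FPKM) and LacZ-negative cells (56.3 FPKM), yet Rbl1 made up 16.8% of it in LacZ-positive cells, against 8.16% in LacZ-negative cells. Its share was 9.14% in cKO-labelled and 10.3% in Het-labelled cells.

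**Figure D3:**
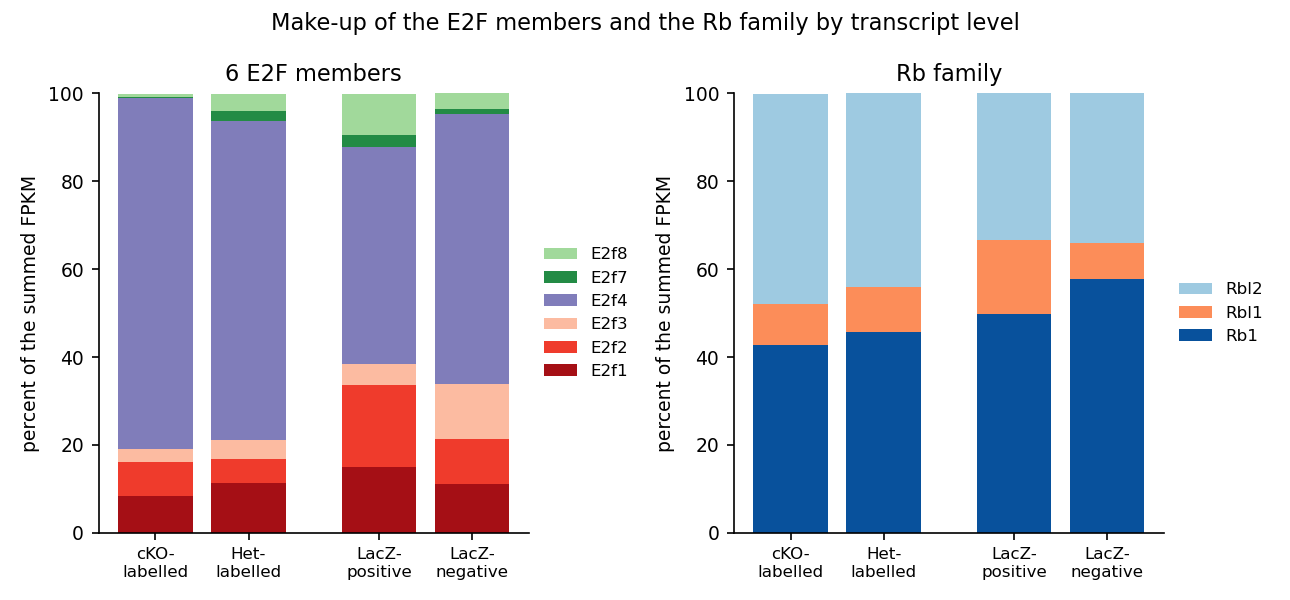
Share of each gene in the summed FPKM of the 6 E2F members (left) and of the Rb family (right), 1 bar per library. E2f5 and E2f6 are not in the E2F sum. E2f4 takes 79.9% of it in cKO-labelled and 72.6% in Het-labelled cells. Rbl1 takes 16.8% of the Rb family sum in LacZ-positive cells and 8.16% in LacZ-negative cells.

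The 2 pairs share no library. Foxm1, E2f8, E2f7, E2f1, Rbl1 and E2f4 were below 0 in the first pair and above 0 in the second, though E2f4 by no more than 0.03 in size in either. E2f3, Rb1 and Rbl2 were below 0 in both pairs, and E2f2 was above 0 in both, Rb1 and Rbl2 with the flips given above. Of all genes above 0 FPKM in each pair, 20.6% had the first combination, 21.8% were below 0 in both and 21.9% above 0 in both. Nearest genes were sought by distance over both log2 differences, among 8335 genes with at least 5 FPKM in a library of each pair. Foxm1, E2f8 and most genes of the G2 and M-phase list did not reach that level in the first pair. Nearer genes of lower level may thus be left out. Nearest to Foxm1 were D17H6S56E-5 (0.46), Lce1m (0.55) and Cenpa (0.63), the gene of the centromeric histone. Those nearest to E2f8 were Tk1 (0.04), the thymidine kinase gene of S phase, Whsc1 (0.06) and Krt23 (0.09). These distances rest on the log2(FPKM + 1) scale, which compresses the first-pair difference of E2f8. By FPKM ratio E2f8 was 6.29-fold higher in Het-labelled than cKO-labelled cells, against 1.47-fold for Tk1, 1.53-fold for Whsc1 and 1.63-fold for Krt23. Likewise Foxm1 was 4.56-fold higher there by FPKM ratio, and Cenpa 2.69-fold.

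**Figure D4:**
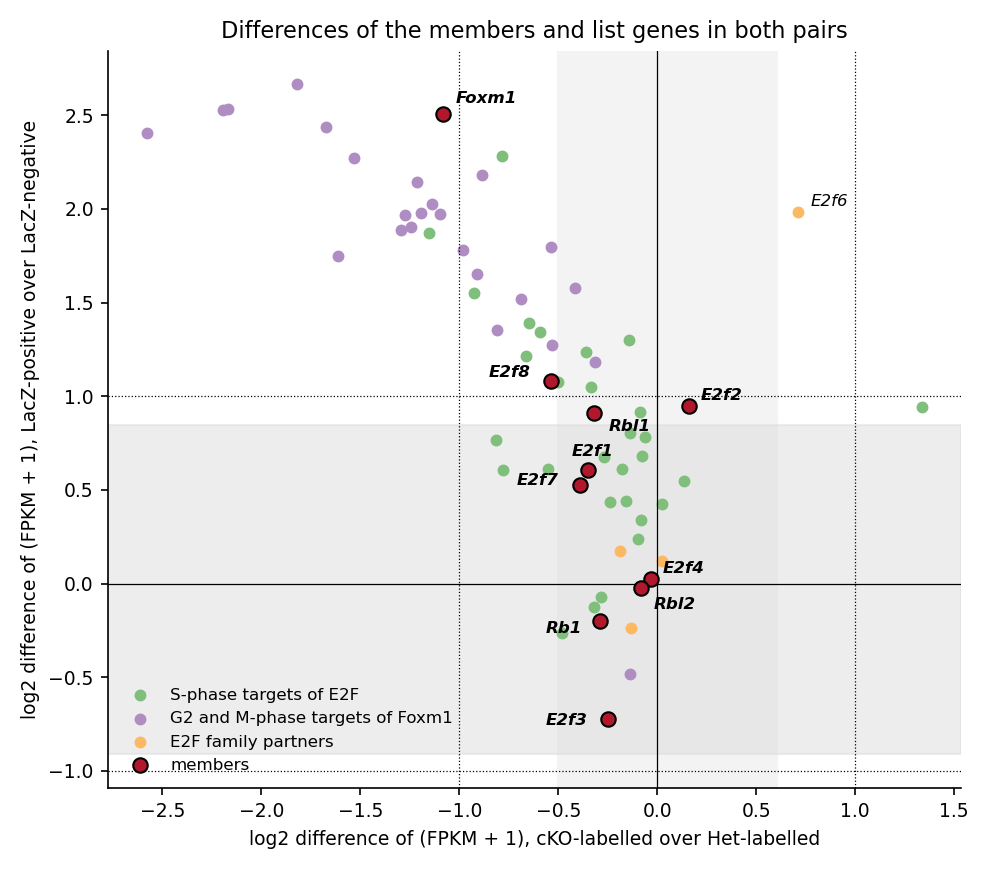
Log2 differences of (FPKM + 1), cKO-labelled over Het-labelled on the horizontal axis and LacZ-positive over LacZ-negative on the vertical axis, for the members (labelled), the S-phase list, the G2 and M-phase list and the E2F family partners. Grey bands hold the central 95% of genes that reached 5 FPKM in each library and dotted lines mark 2-fold; Foxm1 lies at -1.08 and 2.51, among the G2 and M-phase genes, and E2f6 lies at 0.71 and 1.98, apart from them.

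Of the other E2F family genes, E2f5, a repressor like E2f4, and the Dp genes Tfdp1 and Tfdp2, which pair with E2F proteins to bind DNA, lay between -0.24 and 0.17 in both pairs. E2f6, a repressor that acts without pocket proteins, was higher in both pairs. It stood at 17.9 FPKM in cKO-labelled and 10.5 FPKM in Het-labelled cells (0.71), and at 32.4 FPKM in LacZ-positive and 7.45 FPKM in LacZ-negative cells (1.98). In LacZ-positive cells E2f6 thus had a higher FPKM than any of the 6 E2F members, and it shares its interval with no other gene. The list of 4 partners had medians of -0.05 and 0.15 in the 2 pairs.

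Of the 7 MuvB and Myb partners none was 2-fold apart in either pair on the log2(FPKM + 1) scale. Of genes that reached 1 FPKM, 2.29% were 2-fold or more lower in the first pair and 4.67% higher in the LacZ pair. The list medians were -0.02 and 0.09. By FPKM ratio Mybl2 was 4.06-fold higher in Het-labelled than cKO-labelled cells, where 6.94% of genes were 2-fold or more lower in cKO-labelled cells. In LacZ-positive cells Mybl2 was 2.50-fold and Mybl1 3.04-fold higher, against 11.2% of genes. The 5 MuvB core genes lay between -0.06 and 0.20 in the first pair. In the LacZ pair Lin9, Lin52 and Lin54 lay between 0.00 and 0.28, Rbbp4 was at -0.15 (0.02 relative to all genes), and Lin37 stood at 22.2 FPKM in LacZ-positive and 32.9 FPKM in LacZ-negative cells (-0.55, or -0.38 relative to all genes). Mybl2, which joins MuvB in S phase, stood at 0.279 FPKM in cKO-labelled and 1.13 FPKM in Het-labelled cells (-0.74), and at 2.58 FPKM in LacZ-positive and 1.03 FPKM in LacZ-negative cells (0.82). Mybl1, its relative, was at -0.40 and 0.92, or 1.09 relative to all genes in the LacZ pair.

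Of the 15 genes of pocket protein kinases and their inhibitors, Cdkn2a is listed at 0 in all 4 libraries. On the log2(FPKM + 1) scale none was 2-fold apart in the first pair (median -0.10). Of genes that reached 1 FPKM there, 2.29% were 2-fold or more lower and 1.8% higher. By FPKM ratio 1 gene, Cdkn1c, was 2-fold or more higher (2.13), against 6.42% of genes above 0 in both libraries. The largest differences there were those of the CDK inhibitor Cdkn1c (9.88 FPKM in cKO-labelled and 4.65 FPKM in Het-labelled cells, 0.95), the cyclin Ccnd1 (23.8 FPKM in cKO-labelled and 42.2 FPKM in Het-labelled cells, -0.80) and the CDK inhibitor Cdkn1a (31.1 FPKM in cKO-labelled and 18.1 FPKM in Het-labelled cells, 0.75). In the LacZ pair 2 cyclins were 2-fold or more higher, against 4.67% of genes that reached 1 FPKM. The list medians there were 0.29 with no minimum and 0.40 with it. Ccne1, the S-phase entry cyclin that activates Cdk2, stood at 2.25 FPKM in LacZ-positive and 0.464 FPKM in LacZ-negative cells (1.15), and Ccnd2, which drives the kinases that phosphorylate pocket proteins, at 43.0 FPKM in LacZ-positive and 19.1 FPKM in LacZ-negative cells (1.13). Ccne1 reached the minimum through LacZ-positive cells alone. With centring on all genes 3 of the list were 2-fold or more higher, against 6.05% of genes. With upper-quartile scaling 4 were, against 812 of 13283 genes. By FPKM ratio 4 were 2-fold or more higher and 1 was lower, against 11.2% and 7.19% of genes above 0 in both libraries. The CDK inhibitor Cdkn2c followed at 10.6 FPKM in LacZ-positive and 5.09 FPKM in LacZ-negative cells (0.92, or 1.09 relative to all genes), and Cdkn1a was also higher there, at 48.4 FPKM in LacZ-positive and 27.2 FPKM in LacZ-negative cells (0.81, or 0.98 relative to all genes).

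The 30 S-phase targets of E2F were mostly lower in cKO-labelled cells and higher in LacZ-positive cells. In the first pair 27 of all 30 were below 0 and 3 above, with a median of -0.30. Of all genes with a value above 0, 42.8% were below 0, with a median of 0.02. Of the 28 that reached 1 FPKM, 1 was 2-fold or more lower and 1 was 2-fold or more higher, near the shares of all such genes, 2.29% and 1.8%. The lower one was Uhrf1, which maintains DNA methylation at replication, at 2.20 FPKM in cKO-labelled and 6.12 FPKM in Het-labelled cells (-1.15). Orc1, a subunit of the origin recognition complex, was 2-fold or more higher, at 2.49 FPKM in cKO-labelled and 0.380 FPKM in Het-labelled cells (1.34), and the helicase gene Mcm5 was next lowest at -0.93. In the LacZ pair all 30 reached the minimum, 27 were above 0, 11 were 2-fold or more higher and the median was 0.77, or 0.94 relative to all genes. Of all genes that reached 1 FPKM in this pair, 4.67% were 2-fold or more higher, and of all genes above 0 FPKM, 43.7% were above 0. Some of the 11, such as Mcm10 (0.631 FPKM in LacZ-negative cells), reached the minimum through LacZ-positive cells alone. Uhrf1 stood at 15.5 FPKM in LacZ-positive and 3.50 FPKM in LacZ-negative cells (1.87). Mcm5 stood at 20.6 FPKM in LacZ-positive and 6.36 FPKM in LacZ-negative cells (1.55). The 3 below 0 were Rfc3 (-0.26), Mcm7 (-0.12) and Cdc25a (-0.07), and the last 2 were above 0 relative to all genes.

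The 24 G2 and M-phase targets of Foxm1 had medians farther from 0 than the S-phase list in both pairs. In the first pair all 24 were below 0, 14 were 2-fold or more lower and the median was -1.17. Of the 24, 3 did not reach 1 FPKM, and most of the others reached it through Het-labelled cells alone. With no minimum 42.8% of all genes were below 0 and 1.49% were 2-fold or more lower. The 3 lowest were Top2a (-2.58), which untangles DNA for mitosis, Cenpf (-2.19) and Cdk1 (-2.17). Ube2c, which marks mitotic cyclins for destruction, stood at 0.769 FPKM in cKO-labelled and 4.12 FPKM in Het-labelled cells, and Birc5, a subunit with Aurkb of the chromosomal passenger complex, at 0.560 FPKM in cKO-labelled and 3.77 FPKM in Het-labelled cells. In the LacZ pair 23 of 24 were 2-fold or more higher (median 1.93), against 4.67% of all genes that reached 1 FPKM, led by Ccna2 (2.67), Cdk1 (2.53) and Cenpf (2.53). Ube2c stood at 13.2 FPKM in LacZ-positive and 1.93 FPKM in LacZ-negative cells, and Bub1b, of the spindle checkpoint, at 7.66 FPKM in LacZ-positive and 0.907 FPKM in LacZ-negative cells. Bub1b and some others of the 23, such as Nek2 (0.358 FPKM in LacZ-negative cells), reached the minimum through LacZ-positive cells alone. The exception was the phosphatase gene Cdc25b, whose interval holds 5 genes, at 47.4 FPKM in LacZ-positive and 66.6 FPKM in LacZ-negative cells (-0.48, or -0.31 relative to all genes). Cdc25b was also the highest of the 24 in the first pair (-0.14).

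Of the 10 chromatin cofactors of Rb and E2F, which include E2f6, E2f6 in the LacZ pair was the 1 gene past 2-fold in either pair. In the LacZ pair 4.67% of genes that reached 1 FPKM were 2-fold or more higher. The list medians were -0.02 in both pairs. The histone deacetylase genes Hdac1 and Hdac2 lay between -0.13 and 0.10. Ezh2, the Polycomb methyltransferase gene, which is itself known as an E2F target, stood at 12.3 FPKM in cKO-labelled and 19.3 FPKM in Het-labelled cells (-0.61), and at 22.3 FPKM in LacZ-positive and 15.4 FPKM in LacZ-negative cells (0.51).

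**Figure D5:**
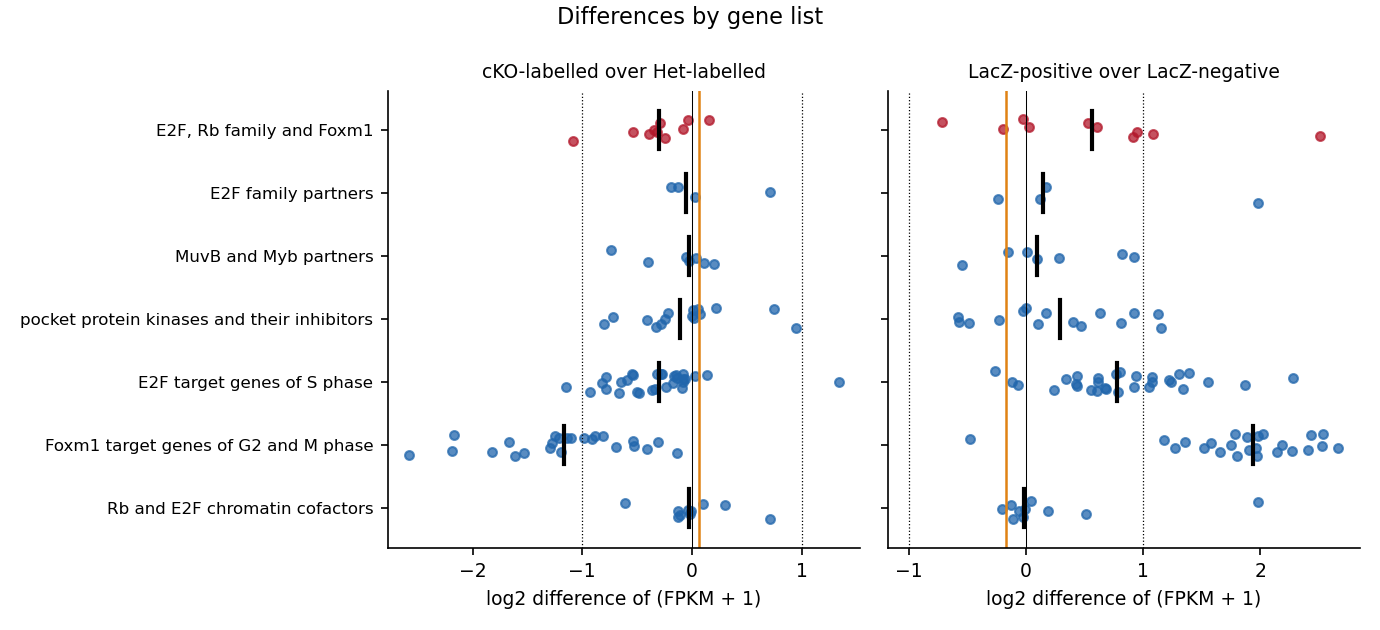
Log2 differences of (FPKM + 1) by gene list, 1 point per gene, in the first pair (left) and the LacZ pair (right), without a minimum; black bars are list medians, the orange line is the median of genes that reached 5 FPKM in each library and dotted lines mark 2-fold. The G2 and M-phase list lies farthest from 0, with medians of -1.17 and 1.93, and the chromatin cofactors lie near 0, at -0.02 in both pairs.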

How the data were processed

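RNA libraries of 4 sorted stem cell populations, with 1 library per group, were used; groups came from the sample labels. FPKM are the values deposited by the authors, per the file headers, in 2 gene tables of 32091 rows, 1 per pair, and the first also holds their log2 fold change of cKO over Het. Cufflinks 2.1.1, TopHat2 2.0.4, TopHat and the builds GRCm38 and mm9 are listed, without roles, in the submitters' processing notes. Handling of strand and multi-reads: not given in the sources used here. Coordinates in the tables are taken as mm9, since on chromosome 7 they reach 152509964, beyond the last GRCm38 gene end of 145324059. They mark intervals that several genes can share. Between 20.6% and 28.1% of all FPKM in a library fell on 1 small RNA, mt-Ts1, whose share can shift every other value. No column of sample values was left unused.

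Rows of 1 symbol were summed after 25 date-like symbols were restored from Ensembl identifiers. Differences are log2 ratios of (FPKM + 1), counted among genes that reached 1 FPKM in at least 1 library of the pair. With 1 library per group no test was made; the share of all genes past the same line is given instead. The steps were run on simulated data with set changes in well-expressed genes and no noise, which does not cover low values or spread between libraries. The members and the 6 lists (90 entries, 89 genes) were chosen with earlier results of these data known. Named were all members, the 3 largest differences of each list, other list genes by role, Ctnnb1 and Axin2, and the 3 genes nearest to each member past 2-fold. One list gene that this rule names is not reported here. Nearest genes had 5 FPKM or more in at least 1 library of each table and were above 0 in all 4; small RNA, Gm and Rik names were left out. The limits of 5 and 15 FPKM for genes of like level were set after the values were seen. Alternatives were 8 planned settings and 2 added later. Python 3.11.15 and pandas 2.3.3 were used.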

Additional observations from a re-analysis of the deposited data

How the results depend on the processing

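No paired analysis was possible because each group has 1 library. Alternatives were a minimum of 5 FPKM or none, a pseudocount of 0.1 or 5, centring on the median gene, scaling to the upper quartile, 1 row per symbol (the highest), no small RNA or clone names, and, chosen after seeing the data, only genes alone in their interval and only genes above 0 in both libraries. Only centring and upper-quartile scaling could change the sign of a member, since the other settings keep the order of its values. Under centring and upper-quartile scaling every member kept its sign, except Rb1 and Rbl2 in the LacZ pair. Members lower by 2-fold in the cKO-labelled library were 0 instead of 1 with pseudocount 5 (Foxm1 at -0.38), a minimum of 5 FPKM and genes alone in their interval; the last 2 leave Foxm1 out. Members higher by 2-fold in LacZ-positive cells were 2, but 4 with pseudocount 0.1, centring or upper-quartile scaling, 1 with pseudocount 5 or a minimum of 5 FPKM, and 0 among genes alone in their interval, which leaves out Foxm1 and E2f8; with pseudocount 0.1, 1 member, E2f3, was lower by 2-fold.

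For the first pair, the S-phase list had 4 genes lower with pseudocount 0.1 and 0 lower and 0 higher with pseudocount 5, and 0 higher with a minimum of 5 FPKM or alone in their interval. The G2 and M-phase list had 2 lower with pseudocount 5, 4 with a minimum of 5 FPKM and 9 alone in their interval, and medians of -2.24, -0.46 and -1.82 with pseudocount 0.1, pseudocount 5 and a minimum of 5 FPKM. For the LacZ pair, with pseudocount 5 the S-phase list had 3 higher and the G2 and M-phase list 15, with a median of 1.10.

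Over all genes in the first pair, 144 were higher and 159 lower with pseudocount 5, 96 and 139 without small RNA and clone names, 116 and 141 alone in their interval, and 140 and 195 above 0 in both libraries, against 234 and 298. In the LacZ pair, against 620 higher and 346 lower, pseudocount 0.1 gave 528 lower, pseudocount 5 gave 282 and 178, centring 224 lower, upper-quartile scaling 215 lower, leaving out small RNA and clone names 402 and 195, and genes alone in their interval 323 and 184. Without read counts, the depth behind values below 1 FPKM is unknown.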
